A study of Mus musculus with 15 samples.

Results

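A set of 7 genes of the plasma cell programme was followed across all 15 libraries: the transcription regulators Prdm1, Irf4, Xbp1, Bhlha15, Zbtb20 and Pou2af1, and the transcription elongation factor Ell2. They were chosen by name, and their identifiers matched 7 of the 51912 gene rows of the deposited table. The libraries came from wild-type mouse B cells cultured on 40LB feeder cells, a fibroblast line made to drive B cell growth, with IL-4 at 100 ng/ml for 6 days, and no further treatment separated the groups. D6 is the unsorted culture at day 6. The other 4 groups were taken off the feeders, kept 2 more days in medium without stimulation and sorted at day 8 into PC and iGC cells of the IgE and IgG1 isotypes, where PC stands for plasma cells and iGC is the labels' name for the cells of the same isotype that had not become plasma cells. Each group held 3 libraries that the labels call biological replicates, without saying whether they came from separate mice, so p-values measure the spread between these libraries. D6 was not sorted and can hold any cell of the culture, and the 4 sorted groups are cultured cells, not cells taken from an animal.

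When a B cell becomes a plasma cell, a small set of regulators replaces the B cell programme with one for antibody secretion. Prdm1 encodes Blimp-1, a repressor that silences B cell genes, and Irf4 encodes a factor that is needed at a high level to start and keep the plasma cell state. Xbp1 encodes the transcription factor of the unfolded protein response that enlarges the secretory apparatus, and its mRNA gives the active form only after the endoplasmic reticulum sensor IRE1, encoded by Ern1, has started its splicing. Bhlha15 encodes MIST1, a factor of secretory cells that lies downstream of XBP1. Ell2 promotes the processing of immunoglobulin heavy chain mRNA to its secreted form, Zbtb20 is a zinc finger factor linked to plasma cell survival, and Pou2af1 encodes OBF-1, the B cell coactivator of octamer-binding factors.

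Promoter sequences are shown because most of these genes moved together, and to show which recognition sequences of plasma cell regulators lie near their starts. RefSeq windows (GRCm38.p6) of 250 bases before to 50 bases after the annotated start were found for 7 of 7 genes. They were searched on both strands for 7 motifs: the octamer ATGCAAAT, the interferon response element GAAANNGAA, the ETS-IRF composite GGAANNGAA, the Blimp-1 core GNGAAAG, the unfolded protein response element TGACGTGG, and the E-boxes CAGCTG and CATATG. The share of all windows that hold any of these motifs was not computed, so the number of windows with a match is not read as a trait of these genes. The windows that held a match are printed here from 120 bases before to 30 bases after the start, 5′ to 3′ on the gene's plus strand, with the matched bases in capitals.
Irf4 (chr13:30749113-30749262): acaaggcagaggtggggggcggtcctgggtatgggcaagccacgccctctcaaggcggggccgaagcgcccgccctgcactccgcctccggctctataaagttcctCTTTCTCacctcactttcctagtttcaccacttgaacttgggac
Bhlha15 (chr5:144190166-144190315): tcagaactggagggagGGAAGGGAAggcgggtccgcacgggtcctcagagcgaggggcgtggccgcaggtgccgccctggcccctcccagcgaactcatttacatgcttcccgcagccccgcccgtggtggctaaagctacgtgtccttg
Ell2 (chr13:75707364-75707513): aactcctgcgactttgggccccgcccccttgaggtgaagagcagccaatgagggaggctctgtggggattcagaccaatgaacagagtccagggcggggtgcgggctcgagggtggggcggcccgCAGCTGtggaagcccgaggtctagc
Pou2af1 (chr9:51213570-51213719): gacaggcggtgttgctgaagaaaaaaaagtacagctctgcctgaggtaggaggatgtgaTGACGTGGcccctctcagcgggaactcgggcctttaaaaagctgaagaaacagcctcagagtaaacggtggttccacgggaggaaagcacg
The Irf4 window held a Blimp-1 core on the opposite strand from 14 to 8 bases before the start, a motif present in 22.6% of the 32851 windows of the same length. The Bhlha15 window held an ETS-IRF composite, present in 8.24% of windows, and the Ell2 window an E-box CAGCTG just after the start, present in 16.3%. The Pou2af1 window held the unfolded protein response element from 61 to 54 bases before the start, the rarest of these matches, found in 0.676% of windows. None of the motifs was found in the windows of Prdm1, Xbp1 and Zbtb20, and the octamer and CATATG matched none of the 7. Only 1 window per gene was searched, so other annotated starts were not covered. The windows of Prdm1 (chr10:44458699-44458998) and Zbtb20 (chr16:43247034-43247333) lie well inside the gene spans given below. A match describes these letters only and does not show that a factor binds there.

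On GRCm38, the build named in the submitters' processing notes, the GENCODE vM21 gene spans are chr10:44437177-44528501 for Prdm1 (minus strand), chr13:30749226-30766976 for Irf4, chr11:5520659-5525893 for Xbp1, chr5:144190286-144194441 for Bhlha15, chr13:75706757-75772364 for Ell2, chr16:42875881-43642602 for Zbtb20 and chr9:51213708-51240080 for Pou2af1, all but Prdm1 on the plus strand. Zbtb20 has 21 annotated transcripts and overlaps 4 genes of the opposite strand, more than any other of the 7. The reads were strand-specific per the labels' protocols, but whether the counting used strand is not given in the sources used here. The values below are counts over whole gene rows, so the spliced and unspliced forms of Xbp1 mRNA are counted together.

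Deposited counts summed to between 17.7 M and 54.1 M per library. Levels are given as CPM, the count scaled to library size with TMM factors, or as TPM, the deposited level per effective transcript length. Immunoglobulin genes took 15.3% to 21.7% of the counts in PC libraries and 1.39% to 1.62% in all others. The 3 IgG1 PC libraries differed from each other more than the replicates of any other group did (r of log2 CPM 0.9884 to 0.9939, against 0.9955 to 0.9983), and IgG1 PC replicate 1 had the highest immunoglobulin share. Of the cell type markers, 6 of 6 B cell genes were above 1 TPM in every group. The plasma cell genes summed to 8717 to 9807 TPM in IgE PC, 5244 to 6447 in IgG1 PC, 771 to 833 in IgE iGC, 465 to 485 in IgG1 iGC and 512 to 534 in D6. Jchain, the joining chain gene, made up most of this sum in PC, with means of 8763 TPM in IgE PC and 5484 in IgG1 PC. Slamf7 was highest in D6 (345 TPM), and Tnfrsf13b was lower in PC than in iGC of both isotypes (169 against 197 TPM in IgE, 125 against 179 in IgG1). Markers of feeder fibroblasts summed to 72 to 122 TPM in D6 and to at most 45.7 TPM in sorted groups, and T cell and mast cell markers to under 1 TPM in every library. Myeloid markers summed to 12.6 to 25.7 TPM, mostly Cd68.

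All 7 genes were called higher in PC than in iGC cells of both isotypes. A gene is called here where the adjusted p of edgeR's quasi-likelihood test, Benjamini-Hochberg adjusted over 15692 genes, is under 0.05. Of all genes tested, 30.5% were called higher in IgE PC than in IgE iGC and 30.1% in IgG1 PC than in IgG1 iGC. The median log2 fold change of the 7 was 3.43 in IgE and 3.82 in IgG1, against -0.08 and 0.01 over all genes. These are bulk samples, in which fewer cells of a type and less RNA per cell cannot be told apart.

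**Figure D1:**
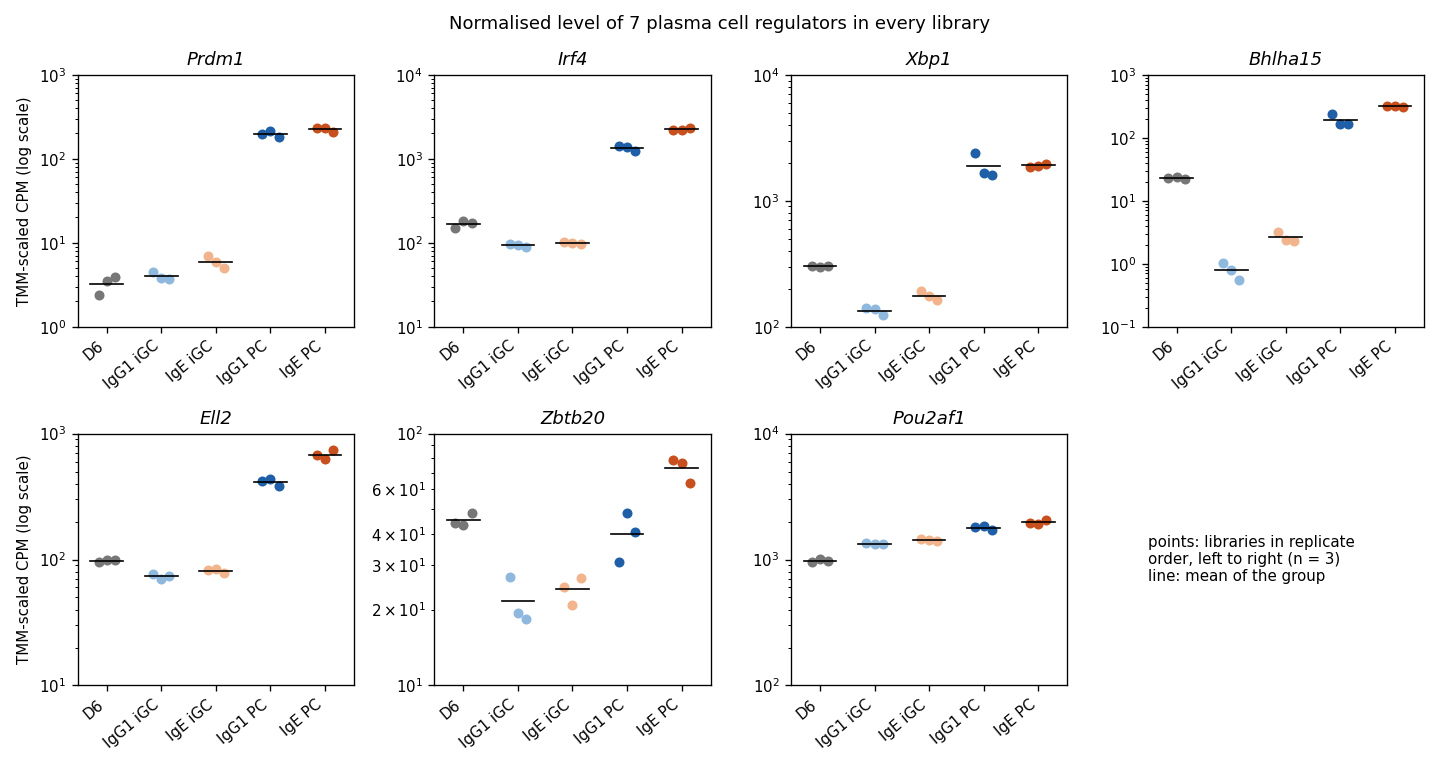
TMM-scaled CPM (log axis) of the 7 genes in each library, with 1 point per library and a line at the mean of the 3 replicates of a group. The PC points of Prdm1, Irf4, Xbp1, Bhlha15 and Ell2 lie far above all other groups, whereas those of Zbtb20 and Pou2af1 lie much nearer to them.

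Prdm1, the Blimp-1 gene, was barely expressed outside the plasma cells. Its levels were 6.87, 5.86 and 4.96 CPM in IgE iGC and 234, 231 and 211 CPM in IgE PC, a 37.4-fold rise (log2 fold change 5.23 ± 0.14 SE, adjusted p = 9.92e-14). In IgG1 it stood at 4.44, 3.84 and 3.68 CPM in iGC and 199, 212 and 183 CPM in PC, a rise of 5.63 ± 0.14 on the log2 scale. Every PC library was far above every iGC library. The fold rests on small denominators, since Prdm1 had between 96 and 302 counts in each iGC library.

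Irf4 was present in all groups and rose steeply in plasma cells. IgE iGC libraries held 103, 98.6 and 97.7 CPM and IgE PC libraries 2211, 2230.3 and 2294 CPM, a difference of 4.49 ± 0.084 (log2, adjusted p = 3.28e-15). IgG1 iGC libraries held 96.1, 92.6 and 89.7 CPM and IgG1 PC libraries 1409, 1397 and 1224 CPM, a difference of 3.86 ± 0.081. The iGC libraries of both isotypes lay close together, whereas every IgE PC library was above every IgG1 PC library.

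The B cell and germinal centre factors that Blimp-1 and IRF4 are known to oppose moved the other way. Of 11 such genes, 10 were called lower in PC than in iGC in both isotypes, where 33.6% (IgE) and 29.0% (IgG1) of all genes were called lower. Their median log2 fold change was -2.25 in IgE and -1.41 in IgG1. Spib, an ETS factor of B cells, fell from 818 ± 4.86 CPM (SD, n = 3) in IgE iGC to 64.2 ± 12.3 in IgE PC. Ciita, the master activator of MHC class II genes and a known Blimp-1 target, went from 461 ± 16.3 to 41.2 ± 4.77 CPM, and Bcl6, the repressor that holds the germinal centre state, from 124 ± 3.82 to 17.4 ± 0.855 CPM. Id3, an inhibitor of E proteins, had a log2 fold change of -2.87 ± 0.14 in IgE and -1.07 ± 0.13 in IgG1. The exception was Mitf, a factor known to restrain Irf4 in B cells, which rose from a low 0.645 ± 0.0799 to 4.95 ± 0.406 CPM in IgE. Of the 5 corepressor genes of Blimp-1, 4 were called lower in IgE PC and 5 in IgG1 PC, and none higher, with medians of -0.28 and -0.32. Among them Hdac1, a histone deacetylase, had log2 fold changes of -1.38 ± 0.047 and -0.65 ± 0.046, and Prmt5, an arginine methyltransferase, -0.99 ± 0.054 and -0.36 ± 0.053.

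Xbp1 rose in both isotypes to nearly the same mean level. It stood at 192, 176 and 162 CPM in IgE iGC and 1847, 1895 and 1974 CPM in IgE PC (log2 fold change 3.43 ± 0.13, adjusted p = 3.52e-12). In IgG1 it went from 140, 138 and 124 CPM to 2397, 1664 and 1607.5 CPM (3.82 ± 0.13, adjusted p = 3.1e-12). IgG1 PC replicate 1 was the highest of all libraries, and the other IgG1 PC libraries lay below every IgE PC library. The means of the PC groups, 1905 ± 64.2 and 1889 ± 440 CPM (SD, n = 3), were not distinguished by the test (0.01 ± 0.12, 95% interval -0.217 to 0.241, adjusted p = 0.939). That interval uses a spread estimated over all 5 groups, whereas the coefficient of variation was 3.37% in IgE PC and 23.3% in IgG1 PC. Without IgG1 PC replicate 1 the difference was 0.22 and called, with an adjusted p of 0.00792.

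Genes listed here as XBP1 targets were higher in IgE PC than in IgG1 PC although the Xbp1 difference was not called. The part of XBP1 itself in the difference was not tested. All 12 of 12 target genes, which serve protein folding, translocation and vesicle transport at the endoplasmic reticulum, were called higher in IgE PC, where 27.4% of all genes were called higher. Their median difference was 1.07 on the log2 scale, against -0.05 over all genes. The count was 12 under each of 23 other settings, with medians of 0.82 to 1.13. Some of these settings only left out a library of a group other than the PC groups compared. The summed plasma cell markers, mostly Jchain, were also higher in IgE PC, and their part in this difference was not tested. The same 12 genes were called higher in PC than in iGC in both isotypes, with medians of 3.15 in IgE and 2.37 in IgG1. Dnajb9, an endoplasmic reticulum co-chaperone, reached 456 ± 41.7 CPM in IgE PC and 119 ± 23.6 in IgG1 PC (SD, n = 3), against 19.5 ± 3.5 and 18.2 ± 2.47 in the respective iGC groups. Herpud1, which takes part in endoplasmic reticulum-associated degradation, reached 2293 ± 245 and 696 ± 92.8 CPM in IgE and IgG1 PC. Serp1, which stabilises translocating membrane proteins, reached 3486 ± 373 and 1205 ± 152 CPM. The largest rise from iGC to PC in the list was that of Sec24d, a coat protein of export vesicles, at 5.67 ± 0.092 in IgE and 5.62 ± 0.094 in IgG1.

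Ern1, which encodes the sensor that starts Xbp1 splicing, rose in IgE from 15.2 ± 0.385 CPM to 833 ± 21.8 and in IgG1 from 10.7 ± 0.675 CPM to 235 ± 9.97. It was 1.83 ± 0.073 higher on the log2 scale in IgE PC than in IgG1 PC (adjusted p = 1.32e-10). Of the 8 genes of Xbp1 activation and the neighbouring stress sensors, 6 were called higher in PC in both isotypes and 6 higher in IgE PC than in IgG1 PC. Of all genes, 30.5% in IgE and 30.1% in IgG1 were called higher in PC, and 27.4% in IgE PC over IgG1 PC. Ddit3, a stress-induced factor of the PERK branch, and Atf6, the sensor of the third branch, were 1.47 ± 0.12 and 1.19 ± 0.053 higher in IgE PC. Rtcb, the RNA ligase that joins the spliced Xbp1 mRNA, was called lower in PC of both isotypes (-0.48 ± 0.05 in IgE), and Zbtb8os, which encodes its cofactor Archease, was not called in either.

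**Figure D2:**
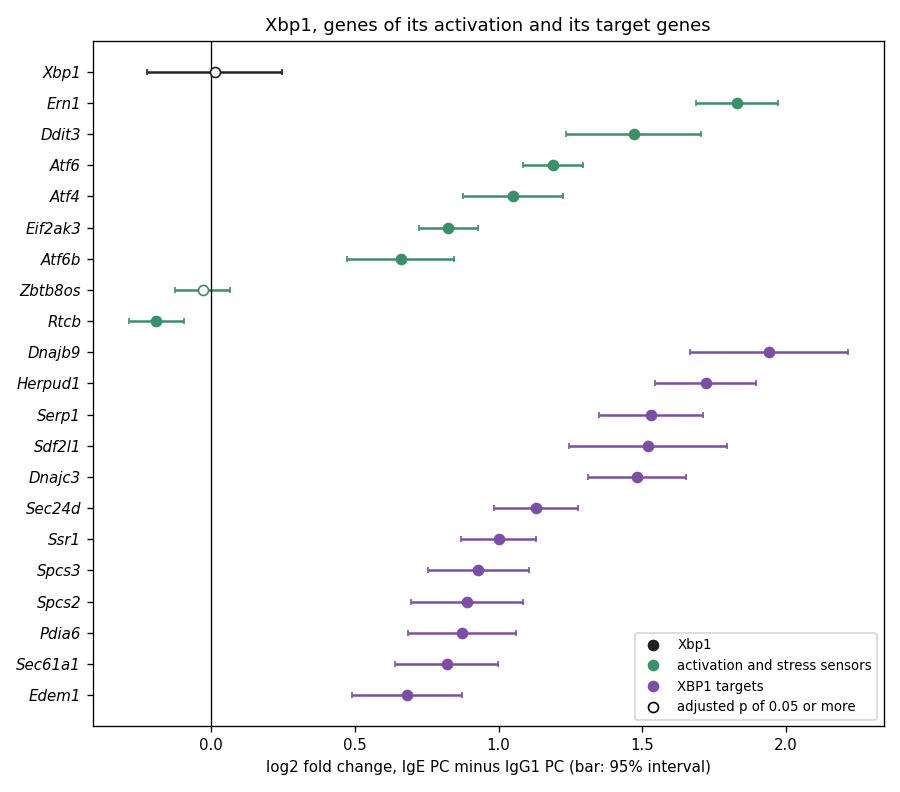
Log2 fold change of IgE PC over IgG1 PC for Xbp1, 8 genes of its activation and of stress sensing, and 12 XBP1 target genes, from the edgeR fit, with bars of the 95% interval and open circles for genes not called. Xbp1 sits at 0.01, while the targets lie between 0.68 and 1.94.

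Bhlha15, the MIST1 gene, had the largest fold change of the 7 in both isotypes. Its levels in IgE iGC were 3.23, 2.36 and 2.32 CPM, and in IgE PC 317, 317 and 309 CPM, a 116-fold rise (6.86 ± 0.18, adjusted p = 9.43e-14). In IgG1 iGC only 42, 30 and 19 counts were found, or 1.03, 0.805 and 0.55 CPM, against 241, 168 and 166 CPM in IgG1 PC (7.89 ± 0.2, adjusted p = 1.44e-13). No group overlapped another for this gene, and each step in the order of the groups was called. Among genes tested, it ranked 17th in IgE and 13th in IgG1 by rise from iGC to PC.

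Of 5 known MIST1 target genes, 3 were called higher in IgE PC than IgE iGC and 4 in IgG1 PC than IgG1 iGC, where 30.5% and 30.1% of all genes were. Their medians were 2.75 and 2.21, against -0.08 and 0.01 over all genes. Rab3d, a small GTPase of secretory granules, rose in IgE from 4.56 ± 0.155 CPM to 37.6 ± 0.576 and in IgG1 from 4.13 ± 0.326 CPM to 17.0 ± 3.36. Ccpg1, an autophagy receptor of the endoplasmic reticulum, was 2.75 ± 0.083 and 2.21 ± 0.082 higher in PC. Copz2, a coat protein of transport vesicles, was also called in both isotypes, whereas Rab26 was called in neither. Tmed6, a cargo receptor family member expressed at a low level, rose in IgG1 (2.7 ± 0.3) and was not called in IgE (-0.47 ± 0.33), and its level was lower in IgE PC than in IgG1 PC (-2.55 ± 0.3, adjusted p = 4.16e-06). The test of the interaction called this gene as well (-3.17 ± 0.44, adjusted p = 5.07e-05).

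Ell2, the elongation factor, rose from 83.3, 83.8 and 78.0 CPM in IgE iGC to 674, 634 and 735 CPM in IgE PC, an 8.33-fold difference (3.06 ± 0.07, adjusted p = 2.06e-14). In IgG1 it rose from 77.1, 70.2 and 73.7 CPM to 420.0, 434 and 387 CPM, a 5.62-fold difference (2.49 ± 0.068). Every IgE PC library lay above every IgG1 PC library, and iGC libraries of both isotypes lay below all D6 libraries.

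The other genes of the ELL family and of elongation complexes changed in both directions. Of 12, 6 were called higher and 4 lower in PC than in iGC in both isotypes, with medians of 0.22 and 0.05. Of all genes, 30.5% and 30.1% were called higher and 33.6% and 29.0% lower in IgE and IgG1. With total-count scaling 3 were called higher and 6 lower in both isotypes (medians -0.25 in IgE and -0.19 in IgG1). Under that scaling 55.7% and 43.6% of all genes were called lower, with medians of -0.55 and -0.22. In TPM 3 were called higher and 8 lower in IgE (median -0.59), and 2 higher and 9 lower in IgG1 (median -0.53). There 61.1% and 58.9% of all genes were called lower, with medians of -0.49 and -0.42. Ell3, the family member found in B cells, fell in IgE from 17.1 ± 0.752 CPM to 0.525 ± 0.0332 and in IgG1 from 13.4 ± 0.74 CPM to 3.68 ± 0.834. Ell itself differed little, at 26.5 ± 0.734 and 30.7 ± 1.15 CPM in IgE iGC and PC. Eaf2, which encodes an ELL-associated factor, rose by 1.74 ± 0.14 in IgE and 3.12 ± 0.15 in IgG1, and Aff1, a scaffold of the super elongation complex, by 2.06 ± 0.076 and 0.98 ± 0.073.

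Pou2af1, the OBF-1 gene, was already abundant before the plasma cell stage and changed least. It stood at 1462, 1419.7 and 1416 CPM in IgE iGC and 1957.5, 1926 and 2061 CPM in IgE PC, a 1.38-fold difference (0.47 ± 0.051, adjusted p = 6.92e-07). In IgG1 it stood at 1363, 1329 and 1321 CPM in iGC and 1808, 1831 and 1703 CPM in PC, a 1.33-fold difference (0.41 ± 0.051, adjusted p = 5.45e-06). Every PC library lay above every iGC library on this scale.

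The direction of Pou2af1 depended on the scaling. TMM sets libraries to a common level over most genes, whereas total-count scaling and TPM count each gene against the whole library, including the immunoglobulin transcripts. With total-count scaling the IgE difference was -0.0027, and on log2(TPM + 1) it was -0.25 in IgE and -0.17 in IgG1, both called by limma. In TPM every PC library (804 to 826 in IgE, 749 to 906 in IgG1) lay below every iGC library of its isotype (965 to 972 and 913 to 926). The median of all genes moved from -0.08 to -0.55 with total-count scaling and to -0.49 in TPM in the IgE comparison, so that relative to all genes Pou2af1 was on the higher side under all 3. Genes called higher made up 47.6% of all calls in that comparison with TMM, 23.3% with total-count scaling and 16.1% in TPM. In the IgG1 comparison these shares were 50.9%, 32.0% and 15.1%. Prdm1, Irf4, Xbp1, Bhlha15 and Ell2 were called higher in PC than in iGC under all 3 scalings.

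**Figure D3:**
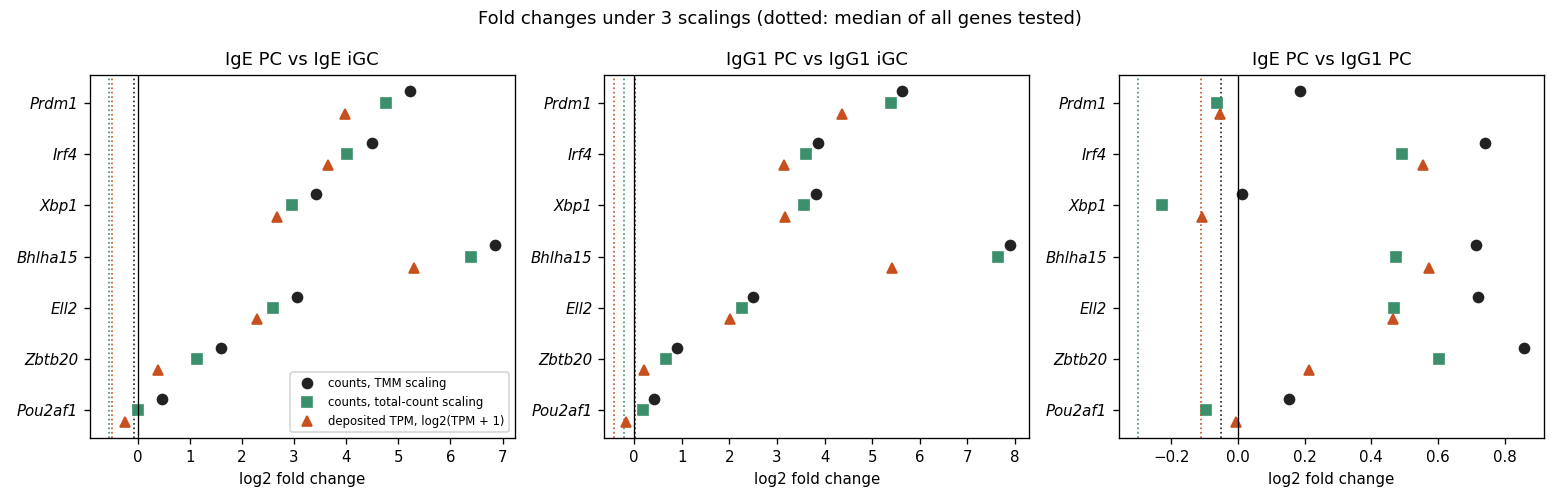
Log2 fold changes of the 7 genes in 3 comparisons from counts with TMM scaling (circles), counts with total-count scaling (squares) and deposited TPM (triangles), with dotted lines at the median of all genes tested under the same scaling. Pou2af1 changes sign between scalings in each panel, and Prdm1 and Xbp1 do so between IgE PC and IgG1 PC.

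Of 8 octamer factors and IRF4 partners, 1 was called higher and 5 lower in IgE PC than IgE iGC, and 1 higher and 4 lower in IgG1, where 30.5% and 30.1% of all genes were called higher and 33.6% and 29.0% lower. Their medians were -0.56 and -0.17. With total-count scaling and in TPM, 7 were called lower in IgE and 6 in IgG1. Of all genes, 55.7% and 61.1% were called lower in IgE under these 2 scalings, and 43.6% and 58.9% in IgG1. The gene that rose with TMM scaling was Pou2f1, which encodes the widely expressed octamer factor OCT1, by 0.87 ± 0.14 in IgE and 0.5 ± 0.14 in IgG1. Pou2f2, which encodes the B cell octamer factor OCT2, was lower by a small amount (-0.4 ± 0.066 and -0.25 ± 0.066). Batf, an AP-1 factor that pairs with IRF4, went from 25.5 ± 2.92 to 15.6 ± 0.308 CPM in IgE (-0.72 ± 0.08), and Ikzf1, which encodes Ikaros, had a difference of -0.88 ± 0.081.

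Zbtb20 was the least expressed of the 7 in plasma cells when length was taken into account, and rose modestly by count. IgE iGC libraries held 24.7, 20.9 and 26.8 CPM and IgE PC libraries 78.5, 76.5 and 63.9 CPM, a 3.04-fold difference (1.6 ± 0.16, adjusted p = 6.44e-07). IgG1 iGC libraries held 26.9, 19.5 and 18.3 CPM and IgG1 PC libraries 31.0, 48.3 and 40.8 CPM, a 1.86-fold difference (0.90 ± 0.16, adjusted p = 0.000292). The PC libraries lay above the iGC libraries of their isotype in counts, but in TPM the groups overlapped in both isotypes. The IgG1 difference was not called in TPM (0.20, adjusted p = 0.275 by limma), and the IgE difference was smaller there (0.40, adjusted p = 0.0356).

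The effective transcript length implied by the deposited values, which is the ratio of count to TPM, differed between groups for Zbtb20. RSEM averages it over the transcripts of a gene to which it assigns reads. Expressed as a percentage of the D6 mean, and scaled with 956 genes that have a single transcript, it was 119, 112 and 129 in IgE PC and 93.8, 98.9 and 87.3 in IgE iGC. It was 77.4, 96.7 and 86.7 in IgG1 PC, and 90.0, 87.0 and 77.9 in IgG1 iGC. All 3 IgE PC libraries lay above all libraries of the other sorted groups, where 24.6% of genes had libraries that did not overlap between IgE PC and IgE iGC, and 21.8% between IgE PC and IgG1 PC. The mean ratio of IgE PC to IgE iGC was 1.28, and 0.524% of 9929 genes had a larger difference between those groups. Against IgG1 PC the ratio was 1.38, with 0.504% of genes further apart. D6 libraries were widely spread (87.6 to 112) and overlapped IgE PC. This measure was added after the data were seen and carries no test.

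**Figure D4:**
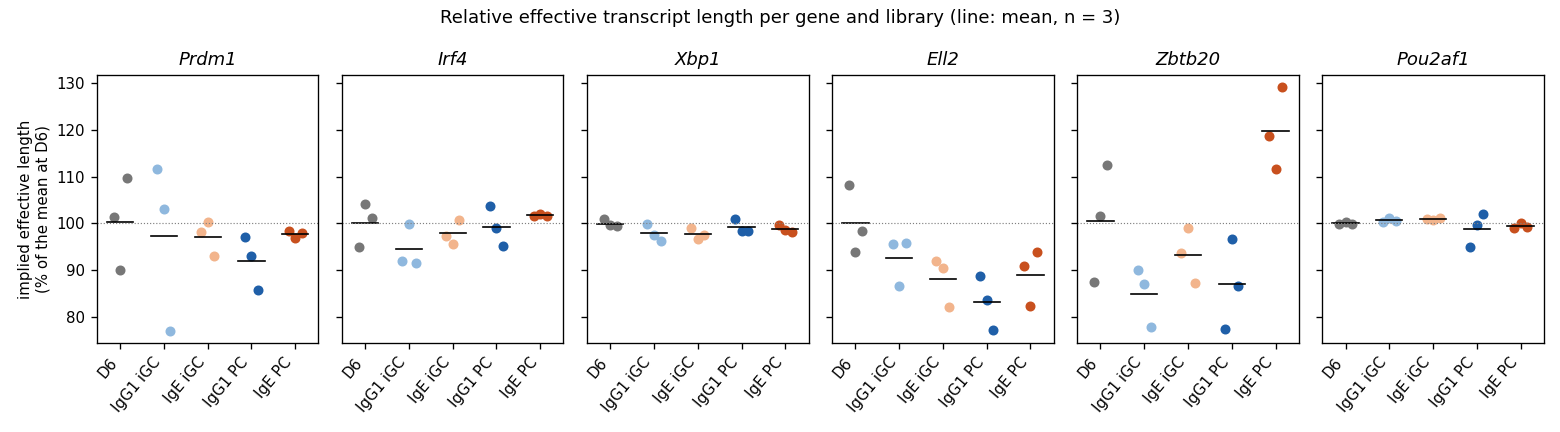
Effective transcript length implied by the deposited count and TPM of each gene, in percent of the D6 mean, for 6 genes in each library (points) with group means (lines). Bhlha15 is left out because it was too low in IgG1 iGC for this ratio. The IgE PC points of Zbtb20 lie at 112 to 129, above every sorted library of the other groups.

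Between the plasma cells of the isotypes, 5 of the 7 genes were called higher in IgE PC than in IgG1 PC, none was called lower, and 27.4% of all genes were called higher. Irf4 (0.74 ± 0.072, adjusted p = 5.18e-07), Ell2 (0.72 ± 0.064, adjusted p = 2.01e-07) and Bhlha15 (0.71 ± 0.13, adjusted p = 0.000193) differed by nearly the same factor of about 1.64 to 1.67. Zbtb20 was 1.82-fold higher (0.86 ± 0.16, adjusted p = 0.000326), and this call was not made in TPM (0.21, adjusted p = 0.297). Pou2af1 was 1.11-fold higher (0.15 ± 0.051, adjusted p = 0.0163), was not called without IgG1 PC replicate 3 (0.12, adjusted p = 0.0677), and had the opposite sign with total-count scaling and in TPM. Prdm1 was not called (0.19 ± 0.11, 95% interval -0.0247 to 0.398, adjusted p = 0.152). With total-count scaling the differences in Irf4, Ell2, Bhlha15 and Zbtb20 remained positive and called, and that in Xbp1 was -0.23 (adjusted p = 0.0488). The median of all genes was then -0.30. Without IgG1 PC replicate 1 the Xbp1 difference was called as well (0.22, adjusted p = 0.00792). Called genes that were higher made up 47.2% with TMM, 23.8% with total-count scaling and 31.7% in TPM. Beside these differences stand the plasma cell markers, whose sum, mostly Jchain, was higher in IgE PC, and the B cell markers, which summed to 2106 to 2319 TPM in IgE PC and 2824 to 3401 in IgG1 PC. The part of cell composition in the differences was not tested.

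Among iGC cells, Bhlha15 and Prdm1 were called higher in IgE than in IgG1, where 1.99% of all genes were called higher. Bhlha15 was 3.35-fold higher (1.74 ± 0.26, adjusted p = 0.000942), and all IgE iGC libraries lay above all IgG1 iGC libraries. Prdm1 was 1.51-fold higher (0.59 ± 0.15, adjusted p = 0.0416), a call that held when IgE iGC replicate 3 was left out, was lost when any of the other 5 libraries was, and was not made with total-count scaling (adjusted p = 0.065) or in TPM (adjusted p = 0.316). Xbp1 (0.40 ± 0.12, adjusted p = 0.0843) was not called with TMM scaling in the fit over all groups, but was called with total-count scaling (0.38, adjusted p = 0.0383), with only the groups compared (0.39, adjusted p = 0.00452), by DESeq2 (0.40, adjusted p = 0.0192) and in TPM by limma (adjusted p = 0.00581). Every IgE iGC library lay above every IgG1 iGC library for Xbp1. Irf4, Ell2, Zbtb20 and Pou2af1 had differences of 0.15 or less, none called. The sum of the plasma cell markers was also higher in IgE iGC, at 771 to 833 TPM against 465 to 485, with Jchain at a mean of 451 against 169.8 TPM, and Tnfrsf17, the receptor BCMA, stood at 0.90 to 1.10 TPM against 0.06 to 0.19. Their part in the difference was not tested.

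**Figure D5:**
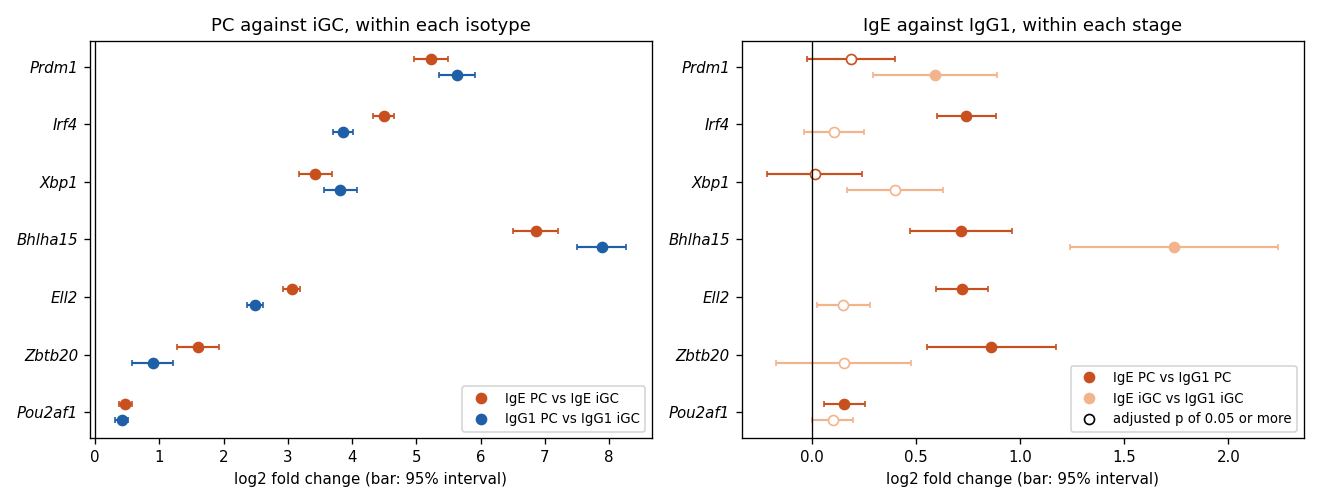
Log2 fold changes of the 7 genes with bars of the 95% interval, for PC against iGC in each isotype (left) and for IgE against IgG1 at each stage (right), with open circles for genes not called. At the PC stage Irf4, Bhlha15, Ell2 and Zbtb20 lie between 0.71 and 0.86, and at the iGC stage Bhlha15 stands apart at 1.74.

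The rise from iGC to PC differed between the isotypes for 4 of the 7 genes by the test of the interaction, which called 42.9% of all genes in either direction. It was larger in IgE for Irf4 (0.64 ± 0.1, adjusted p = 0.000177), Ell2 (0.57 ± 0.091, adjusted p = 0.000168) and Zbtb20 (0.71 ± 0.23, adjusted p = 0.0221). For Bhlha15 it was larger in IgG1 (-1.03 ± 0.29, adjusted p = 0.0102), whose iGC libraries held fewer Bhlha15 counts. On log2(TPM + 1) the Bhlha15 difference was -0.11 (adjusted p = 0.579), a scale that compresses low levels, and those of Ell2 and Zbtb20 were 0.27 and 0.20 (adjusted p = 0.197 and 0.56 by limma). Zbtb20 was also not called with total-count scaling (0.46, adjusted p = 0.143). Prdm1, Xbp1 and Pou2af1 were not called with TMM scaling over all groups (-0.40, -0.39 and 0.06). With total-count scaling all 3 were called in the direction of a larger rise in IgG1, at -0.64 for Prdm1 (adjusted p = 0.0156), -0.61 for Xbp1 (adjusted p = 0.00189) and -0.18 for Pou2af1 (adjusted p = 0.0441). Under that scaling the median of all genes was -0.30, and Pou2af1 lay above it. Of all genes, 35.7% were then called toward a larger rise in IgG1 and 9.83% toward a larger rise in IgE. Prdm1 was also called with only the groups compared (-0.41, adjusted p = 0.0394). Xbp1 was also called in TPM (adjusted p = 0.00171 by limma) and without IgG1 PC replicate 2 (-0.47, adjusted p = 0.0311) or IgG1 PC replicate 3 (-0.49, adjusted p = 0.024). Of the XBP1 targets, 11 of 12 were called toward a larger rise in IgE with TMM scaling, with a median of 0.92. Of all genes, 19.8% were called in that direction under TMM scaling, and their median was -0.06.

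Relative to the day 6 culture, the regulators split. The 4 comparisons with D6 share its 3 libraries and are not independent of each other. Between IgE iGC and D6, 5 of the 7 were called lower and 2 higher, and 69.1% of all genes were called in either direction. Between IgG1 iGC and D6, 5 were called lower and 1 higher, with 68.4% of genes called. Bhlha15 had the largest fall, from 23.0, 24.0 and 22.4 CPM in D6 to the 2.32 to 3.23 CPM of IgE iGC (-3.09 ± 0.17) and the 0.55 to 1.03 CPM of IgG1 iGC (-4.84 ± 0.2). Irf4 fell by 0.76 in IgE and 0.86 in IgG1 from 150, 184 and 174 CPM in D6, and Xbp1 by 0.77 and 1.17 from 302, 297 and 305 CPM. Pou2af1 was higher in both iGC groups than in D6 (0.56 ± 0.051 and 0.46 ± 0.051), and Prdm1 was called higher in IgE iGC (0.90 ± 0.15) but not in IgG1 iGC (0.31 ± 0.16). Of the XBP1 targets, 9 of 12 were called lower in each iGC group than in D6, where 36.3% (IgE) and 36% (IgG1) of all genes were. The 2 called higher were Herpud1 (0.77 in IgE iGC, 0.55 in IgG1 iGC) and Serp1 (0.62 and 0.56). Sdc1, the plasma cell surface marker CD138, stood at 6.22 to 8.46 TPM in D6 and at 0.62 to 1.5 TPM in iGC libraries, whereas Jchain had the opposite order, with a mean of 5.59 TPM in D6, 451 in IgE iGC and 169.8 in IgG1 iGC. The part of plasma cells in the D6 levels was not tested.

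All 7 genes were called higher in IgE PC than in D6, where 36.9% of all genes were called higher, and 6 of 7 in IgG1 PC, where 35.9% were. D6 levels were 1.44% of the IgE PC mean CPM for Prdm1, 7.53% for Irf4, 15.8% for Xbp1, 7.36% for Bhlha15, 14.4% for Ell2, 62.0% for Zbtb20 and 49.2% for Pou2af1. Zbtb20 was the one not called in IgG1 PC (-0.17 ± 0.16, adjusted p = 0.346), and it was called lower than in D6 there with total-count scaling (-0.44, adjusted p = 0.0307) and in TPM (-0.60, adjusted p = 0.0033 by limma). Its call in IgE PC was lost with total-count scaling (0.16, adjusted p = 0.403) and turned to a lower level in TPM (-0.39, adjusted p = 0.0365). Against D6, the medians of all genes in these 2 settings were -0.57 and -0.59 in IgE PC, below the Zbtb20 values. In IgG1 PC they were -0.27 and -0.47, above the Zbtb20 values. In TPM 66.4% of all genes were called lower in IgE PC and 62.6% in IgG1 PC. The D6 libraries held 44.1, 43.4 and 48.2 CPM of Zbtb20, inside the range of IgG1 PC. In TPM all PC libraries of both isotypes lay below all D6 libraries for this gene. Feeder fibroblast markers were highest in D6, and their part in the Zbtb20 level was not tested.

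Ordered by mean CPM, the groups ran IgE PC, IgG1 PC, D6, IgE iGC, IgG1 iGC for Irf4, Xbp1, Bhlha15 and Ell2. All 4 steps were called for Bhlha15. For Irf4 and Ell2 the last step, between the iGC groups, was not called, and for Xbp1 neither the first nor the last was. Prdm1 and Pou2af1 had the order IgE PC, IgG1 PC, IgE iGC, IgG1 iGC, D6. For Prdm1 the first and last steps were not called, and for Pou2af1 the step between the iGC groups was not. Zbtb20 alone had D6 in second place (IgE PC, D6, IgG1 PC, IgE iGC, IgG1 iGC), with D6 and IgG1 PC not distinguished with TMM scaling.

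Compared per length, as TPM, the regulators differed by orders of magnitude within a plasma cell library. In IgE PC the means were 948 ± 17.8 TPM for Xbp1, 817 ± 11.6 for Pou2af1, 477 ± 5.73 for Irf4, 233 ± 5.43 for Ell2, 86.4 ± 3.95 for Bhlha15, 48.1 ± 4.19 for Prdm1 and 4.69 ± 0.926 for Zbtb20 (SD, n = 3). The order was the same in IgG1 PC, from 1024.5 ± 85.3 TPM for Xbp1 to 3.92 ± 0.875 for Zbtb20. Prdm1, for all its fold change, therefore stood at a modest level, above 90.7% of the genes with any signal in IgE PC, and Xbp1 above 99.2%. In IgE iGC the most abundant was Pou2af1, at 970 ± 3.96 TPM, and Bhlha15 and Prdm1 were near the middle of all genes.

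The genes whose log2 CPM followed each regulator most closely over the 15 libraries were found among 8933 genes. These correlations describe 5 groups of libraries that share their stage, so each is high. Ranked on log2 TPM instead, 2 of the 3 closest genes were shared for Prdm1 and Ell2, 1 for Irf4, Xbp1, Bhlha15 and Zbtb20, and 0 for Pou2af1. Irf4 and Ell2 followed each other (r = 0.9961), and Irf4 was also close to Il6st, which encodes the cytokine receptor chain gp130 (r = 0.9982), Hid1 (0.9967) and Arfgap3 (0.9963), the latter a GTPase-activating protein of the Golgi. Ell2 was next closest to Tigit (0.9960), an inhibitory receptor gene, and Ube4a (0.9958). Xbp1 was closest to Ddost (0.9951), a subunit of the oligosaccharyltransferase, Lamc1 (0.9948) and Ssr2 (0.9946), a subunit of the translocon-associated complex. Bhlha15 was closest to Sec24d (0.9963), which is among the XBP1 targets, Selenop (0.9938) and Rbm47 (0.9935). Prdm1 was closest to Serinc5 (0.9950), Slpi (0.9943) and Txndc11 (0.9935).

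Pou2af1 followed other genes, Ppp3cc (0.9948), a calcineurin subunit, Jchain (0.9926), the joining chain of polymeric antibody, and Calcoco1 (0.9919). Jchain went from 4.48 ± 1.61 CPM in D6 to 403 ± 29.8 in IgE iGC and 12642 ± 1180 in IgE PC, a far wider range than that of Pou2af1. Zbtb20 had the lowest best matches, Ubr4 (0.9743), Mib1 (0.9706) and Trip11 (0.9679). Among the 7 genes themselves the lowest r was between Zbtb20 and Pou2af1 (0.34), and the other pairs without Zbtb20 or Pou2af1 lay between 0.88 and 0.996.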

How the data were processed

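PolyA RNA of 15 libraries (5 groups, 3 each) was sequenced as single-end 76 bp reads, per the labels' protocols. The authors deposited RSEM expected counts and TPM per gene, per the file headers. The submitters' processing notes name cutadapt 1.9.1, STAR 2.5.2a, RSEM 1.3.0, DESeq2 1.12.3 and GRCm38, and the annotation release is not given in the sources used here. Groups and replicate numbers came from the titles. The 7 members, the pathway lists and the tests were chosen with earlier results of these data known. Every member is named, with the 3 genes of highest r for each, and up to 4 called genes per list with the largest change. Other list genes named were chosen after their values were seen.

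Expected counts were rounded. Genes passing filterByExpr (minimum count 10, total 15) numbered 15692 and included all 7 members. TMM-scaled counts of all 15 libraries were fitted with edgeR 4.0.16 (R 4.3.3; glmQLFit, robust, and glmQLFTest), with Benjamini-Hochberg adjustment over all genes and a call at 0.05. SE is the log2 fold change divided by the square root of F, and 95% intervals are normal intervals from it. On simulated counts with a common dispersion and few changed genes, the fit was checked to recover known changes. In these data IgG1 PC libraries varied more and many genes changed, so that check does not cover the calls made here. Alternatives were DESeq2 1.42.0, RLE and total-count scaling, no immunoglobulin genes, no filter, only the groups compared, the replicate block, limma 3.58.1 on log2(TPM + 1), and leaving out each library. Effective length used genes with at least 50 counts and 0.5 TPM. Counts between 17.7 M and 54.1 M per library limit the precision for low genes, and reads carry no molecular identifiers.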

Additional observations from a re-analysis of the deposited data

Results flagged for a closer look

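For 4 of the 7 genes the rise at the PC stage was unequal in the isotypes by the test of the interaction, which is why they are listed. That test called 42.9% of all genes in either direction. The difference was 0.636 on the log2 scale for Irf4, 0.569 for Ell2 and 0.709 for Zbtb20, each larger in IgE, and -1.03 for Bhlha15, larger in IgG1. Without IgE iGC replicate 2, IgE PC replicate 1 or IgG1 iGC replicate 1 the Zbtb20 value was 0.62, 0.66 or 0.52 and no longer called. For Irf4 the difference was called under all 20 alternatives that were run, between 0.40 and 0.68. No explanation of these differences was tested.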

How the results depend on the processing

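Of the values of single genes under alternatives, 871 kept their direction and side of the threshold, 24 lost the call, 15 gained one and 14 changed sign. With total-count scaling the sign changed between IgE PC and IgG1 PC for Prdm1 (-0.063), Xbp1 (-0.23) and Pou2af1 (-0.097), and for Pou2af1 between IgE PC and IgE iGC (-0.0027) and in the interaction (-0.18). The medians of all genes in these comparisons were -0.30, -0.55 and -0.30. On log2(TPM + 1) the sign changed for Pou2af1 between PC and iGC (-0.25 in IgE, -0.17 in IgG1), between the PC groups (-0.0057) and in the interaction (-0.080). On that scale it also changed between the PC groups for Prdm1 (-0.054) and Xbp1 (-0.11), and between IgE PC and D6 for Zbtb20 (-0.39). The median of all genes there was -0.11 between the PC groups and -0.59 between IgE PC and D6. Xbp1 between the PC groups was 0.22 without IgG1 PC replicate 1, -0.065 without IgG1 PC replicate 2 and -0.091 without IgG1 PC replicate 3. Members called between IgE PC and IgG1 PC numbered 3 in TPM, where 14.2% of all genes were called higher and 30.5% lower. In the interaction 2 were called in TPM, where 8.2% of all genes were called toward a larger rise in IgE and 19.5% toward IgG1. Between the iGC groups 1 member was called without the count filter, and 1 to 2 when a library was left out. With TMM scaling of all libraries, 1.99% of all genes were called higher there and 1.88% lower. The cause was not tested.

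Same-numbered libraries did not deviate together (the mean r of their deviations was between -0.12 and 0.10 across pairs of groups), so the numbers were not taken to pair them. The replicate block left 1 member called between the iGC groups in place of 2, since Prdm1 lost its call (0.58, adjusted p = 0.0632), and the other member counts were equal. Bhlha15 had 19 to 42 counts in IgG1 iGC, which limits its precision there.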
